A study of Mus musculus with 6 samples.

Results

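The interleukin-1 (IL-1) and interleukin-18 (IL-18) family was examined through 10 genes. These were the ligands Il1a, Il1b, Il18 and Il33, the receptor genes Il1r1, Il1r2, Il18r1 and Il18rap, and the natural antagonists Il1rn and Il18bp, each found by its symbol among the 21358 entries of the deposited values. These are in FPKM, in which reads of a gene are divided by its exon length and by the mapped reads of the library. All 10 were present, and all 10 passed the minimum mean of 0.1 FPKM that left 14172 genes to test. RNA came from whole subcutaneous tumors of B16-F10, a mouse melanoma cell line, taken at day 12 of treatment from 3 C57/BL6 mice per group. All mice had been lymphodepleted by irradiation and had received adoptive cell transfer (ACT) of spleen cells from pmel-1 mice, in which CD8 T cells express a transgenic receptor for the melanoma antigen gp100, activated in culture with gp100 peptide. Transfer took place once tumors reached at least 150 mm3. The first group was given IL-2 (ACT + IL-2) and the second NKTR-214 (ACT + NKTR-214), an IL-2 that carries releasable polyethylene glycol chains and is biased towards the beta and gamma chains of the IL-2 receptor. The agents were given on different schedules and by different routes, and no group without either agent was analysed here.

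IL-1 alpha and IL-1 beta, encoded by Il1a and Il1b, bind the same signalling receptor, IL-1R1, which recruits a shared accessory chain. A decoy receptor (IL-1R2) and a receptor antagonist (IL-1Ra, encoded by Il1rn) limit that signal. IL-18 binds a receptor made of a ligand-binding chain, encoded by Il18r1, and an accessory chain, encoded by Il18rap, which activated T cells and NK cells carry, and a secreted binding protein encoded by Il18bp keeps IL-18 from it. IL-33 is stored in the nucleus of stromal and endothelial cells and signals through ST2, the product of Il1rl1. IL-1 beta and IL-18 are made as precursors that caspase-1 cleaves within inflammasomes, so the level of their mRNA is not the level of active cytokine.

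Of the 10 genes, 8 were higher in ACT + NKTR-214 tumors than in ACT + IL-2 tumors, 0 were lower, and 2 (Il1b and Il18) did not pass the test. At an unadjusted p under 0.05, 0 were lower as well. The 8 calls depend on limma's moderated variance: with the variance of each gene alone, 0 of the 10 passed (adjusted p from 0.0586 to 0.149 for those 8), and 8 had an unadjusted p under 0.05. The groups were compared with limma on log2(FPKM + 1), with Benjamini-Hochberg adjustment over all genes tested and a threshold of 0.05. Over all genes tested, 20.7% were called higher and 8.28% were called lower. These shares rest on the moderated variance too: without it 101 of all genes were higher and 27 lower, against 2940 and 1173. The lower count also depended on the scaling and on single tumors: against 1173 of 14172 genes, it was 3501 when libraries were scaled to their 75th percentile, 4549 when they were quantile-normalized, and 636 to 1996 with 1 tumor left out (636 without ACT + IL-2 replicate 3, 680 without ACT + NKTR-214 replicate 2 and 1996 without ACT + IL-2 replicate 2). In 9 of the 10 genes every ACT + NKTR-214 tumor lay above every ACT + IL-2 tumor, where 27.1% of all genes were of this kind. It was 7 of the 10 under quantile normalization. The median log2 fold change (ACT + NKTR-214 minus ACT + IL-2 here and throughout) was 1.48 over the 10 genes and 0.045 over all genes tested. The IL-18 receptor chains Il18rap and Il18r1 had the largest log2 fold changes, 2.74 and 2.72, and Il18 itself had the smallest, 0.45.

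**Figure D1:**
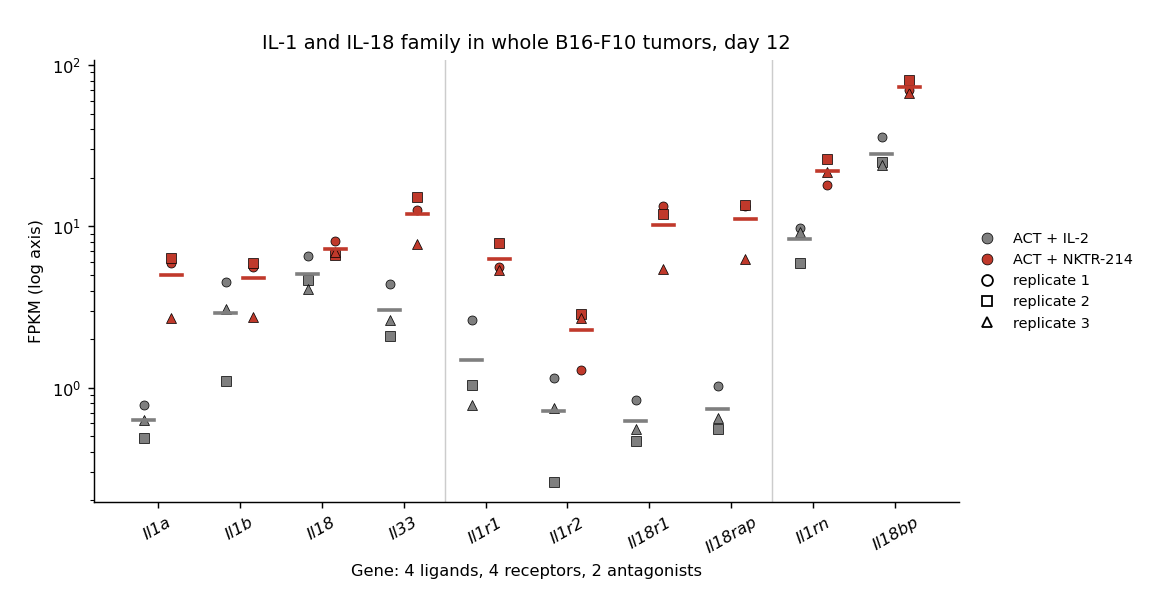
FPKM of the 10 genes in each tumor on a log axis, with ACT + IL-2 in grey and ACT + NKTR-214 in red, a different symbol for each replicate and a bar at each group mean. Il1b is the gene whose groups overlap, and Il18r1 and Il18rap show the widest gap between groups.

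The groups also differed in the markers of several cell types. The summed FPKM of 5 genes of all leukocytes (Ptprc among them) ranged from 85.5 to 212 in ACT + IL-2 and from 485 to 920 in ACT + NKTR-214. That of 7 T cell genes ranged from 10.7 to 24.8 and from 128 to 276, and that of 8 monocyte and macrophage genes from 76.9 to 192 and from 317 to 475. All genes of these 3 lists passed the test as higher. Among 6 melanocyte genes 4 were lower, among 6 fibroblast genes 5 were higher, and among 5 endothelial genes 1 was higher. Keratinocyte genes summed to at most 1.68 FPKM in any tumor. Of 9 neutrophil genes listed, 8 were tested and 6 were higher, while Ly6g, which defines the lineage, was listed at 0 in 5 of the 6 libraries. Of the genes tested for the other cell types, 3 of 5 NK cell genes, 2 of 2 CD8 genes, 0 of 2 B cell genes, 4 of 5 dendritic cell genes and 3 of 9 genes of eosinophils, basophils and mast cells were higher. In RNA from a whole tumor, more cells that express a gene and more of its RNA per cell cannot be told apart. The steps between low FPKM values corresponded to roughly 20900000 to 24600000 counted reads per library. This is an estimate, since 67.6 to 71.0% of the low values came out as whole reads within a tolerance of 0.1.

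Il1a, the ligand that also acts as an alarm signal released by damaged cells, had 0.785, 0.487 and 0.629 FPKM in the ACT + IL-2 tumors and 5.89, 6.34 and 2.71 FPKM in the ACT + NKTR-214 tumors (values are listed in the order of the replicates throughout). The groups did not overlap, and the lowest ACT + NKTR-214 tumor lay well above the highest ACT + IL-2 tumor. The mean rose 7.85-fold, from 0.634 ± 0.149 to 4.98 ± 1.98 FPKM (SD, n = 3 per group), and the log2 fold change was 1.81 (SE 0.21, 95% interval 1.37 to 2.26, adjusted p = 9.41e-06). On GRCm38 Il1a lies at chr2:129299610-129309972 on the minus strand, where 11.2% of its exon bases overlap exons of the antisense gene Gm14023. The sources used here do not state whether reads were counted by strand, so reads of the 2 genes may not be separable there.

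Il1b, the ligand made mainly by activated myeloid cells, gave 4.499, 1.10 and 3.08 FPKM with IL-2 and 5.61, 5.95 and 2.74 FPKM with NKTR-214. Here the groups overlapped, because ACT + NKTR-214 replicate 3 lay below ACT + IL-2 replicates 1 and 3. Means were 2.89 ± 1.71 and 4.77 ± 1.76 FPKM, and the log2 fold change of 0.62 (SE 0.29, 95% interval 0.00 to 1.24) did not pass the test (adjusted p = 0.126). Single tumors moved this value: the log2 fold change was 0.23 without ACT + IL-2 replicate 2, 0.93 without ACT + IL-2 replicate 1 (adjusted p = 1.25e-05) and 0.91 without ACT + NKTR-214 replicate 3 (adjusted p = 2.76e-05). With the replicate number as a block the adjusted p was 0.0291, and with a minimum mean of 1 FPKM it was 0.0489. These refits estimated the moderation of variance anew, so their p-values are not comparable with that of the main fit. For Il18r1 the adjusted p went from 6.19e-07 to 1.08e-57 without ACT + NKTR-214 replicate 3 (log2 fold change 2.72 and 3.08).

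Il1a and Il1b are neighbours on chromosome 2, with no other protein-coding gene between them (Il1b at chr2:129364570-129371139, minus strand). The ratio of Il1a to Il1b was 0.175, 0.443 and 0.204 in the ACT + IL-2 tumors and 1.05, 1.06 and 0.987 in the ACT + NKTR-214 tumors. In every ACT + IL-2 tumor Il1b was the more abundant of the pair, and in ACT + NKTR-214 tumors both stood at nearly the same FPKM. The log2 ratio differed by 1.19 between groups (p = 0.1 by an exact permutation test, two-sided, which cannot give less with 3 against 3 tumors), and this pair was chosen after its values were seen. The flanking gene Ckap2l, which acts at the mitotic spindle, did not pass (log2 fold change -0.42, adjusted p = 0.0975), and Sirpa, a myeloid inhibitory receptor, rose by 0.81 (adjusted p = 0.00578).

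The 250 bases before the transcript start of Il1a and of Il1b are shown because this pair of adjacent genes differed in its change (RefSeq, GRCm38.p6, minus strand, written 5′ to 3′). The Il1a window is chr2:129309973-129310222 and the Il1b window is chr2:129371140-129371389. Capitals mark the AP-1 motif TGANTCA.
Il1a: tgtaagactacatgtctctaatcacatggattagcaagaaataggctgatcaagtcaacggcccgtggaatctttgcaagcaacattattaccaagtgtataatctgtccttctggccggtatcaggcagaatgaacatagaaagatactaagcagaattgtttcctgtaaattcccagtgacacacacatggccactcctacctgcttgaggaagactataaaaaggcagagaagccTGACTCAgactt
Il1b: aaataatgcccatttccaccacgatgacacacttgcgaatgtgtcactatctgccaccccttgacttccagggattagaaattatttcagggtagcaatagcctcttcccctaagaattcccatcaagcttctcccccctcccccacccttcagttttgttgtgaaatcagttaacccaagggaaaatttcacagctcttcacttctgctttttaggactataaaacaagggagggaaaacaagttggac
Each of 6 motifs was searched on both strands in 16 such windows of the 10 genes, all of which had at least 1 window. They were the STAT motif TTCNNNGAA, the AP-1 motif TGANTCA, the Runx motif TGTGGT, the PU.1 motif GAGGAAGT, the interferon-response core GAAANNGAA and the kappaB motif. AP-1 stands in the Il1a window at 12 to 6 bases before the start and in an Il1rn window at 141 to 135 bases before it, and 6.75% of all 32851 windows hold it. The Il1b window held none of the 6 motifs. No window of the 10 genes held the interferon-response core (7.13% of all windows), 1 Il1r1 window held kappaB (3.90%) and the Il18 window held Runx (14.05%). A match describes the letters of a window and is not a binding site.

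Il18, the interferon-gamma-inducing ligand, had 6.51, 4.67 and 4.07 FPKM in the ACT + IL-2 tumors and 8.15, 6.61 and 6.93 FPKM in the ACT + NKTR-214 tumors. The groups did not overlap, but only narrowly, since the highest ACT + IL-2 tumor (6.51) and the lowest ACT + NKTR-214 tumor (6.61) nearly met. Means of 5.08 ± 1.27 and 7.23 ± 0.817 FPKM gave a log2 fold change of 0.45 (SE 0.17, 95% interval 0.09 to 0.82), which did not pass the test (adjusted p = 0.0600). Without ACT + IL-2 replicate 1 it was 0.61 and passed (adjusted p = 0.00794). It also passed with the replicate block (adjusted p = 0.042) and with a minimum mean of 1 FPKM (0.033). It was smaller and did not pass without ACT + IL-2 replicate 3 (0.33, adjusted p = 0.256), without ACT + NKTR-214 replicate 1 (0.37, adjusted p = 0.218) and under quantile normalization (0.31, adjusted p = 0.0936). These refits, too, estimated the moderation of variance anew, so their p-values are not comparable with that of the main fit. Il18 lies at chr9:50554827-50581840 on the plus strand.

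Il33, the alarmin of stromal cells, gave 4.38, 2.10 and 2.63 FPKM with IL-2 against 12.6, 15.2 and 7.79 FPKM with NKTR-214. All 3 ACT + NKTR-214 tumors lay above all 3 ACT + IL-2 tumors. Its mean rose 3.92-fold, from 3.03 ± 1.19 to 11.9 ± 3.78 FPKM, with a log2 fold change of 1.67 (SE 0.23, 95% interval 1.18 to 2.16, adjusted p = 5.08e-05). The gene lies at chr19:29925114-29960718 on the plus strand. Relative to the summed FPKM of 5 endothelial genes, Il33 stood at 8.38 to 11.3% in ACT + IL-2 and at 20.8 to 26.5% in ACT + NKTR-214. Relative to 6 fibroblast genes its ranges overlapped, from 0.679 to 1.22% and from 1.04 to 2.19%.

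**Figure D2:**
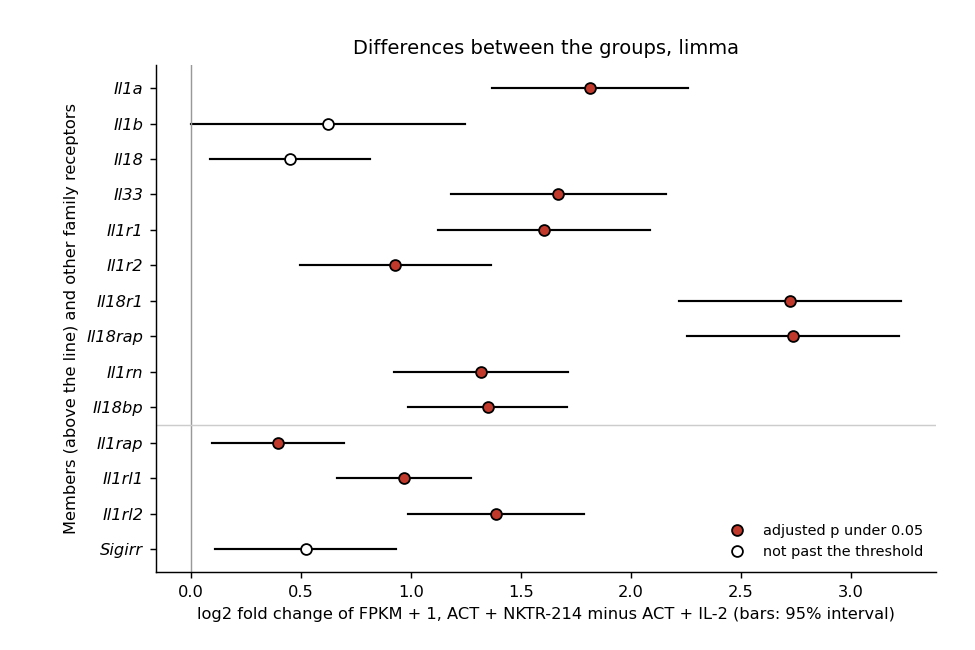
Log2 fold changes of FPKM + 1 with 95% intervals for the 10 genes and, below the line, 4 other receptor genes of the family. Filled points passed the test and open points (Il1b, Il18 and Sigirr) did not, and the 2 chains of the IL-18 receptor lie farthest to the right.

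Il1r1, the signalling receptor for both IL-1 ligands, had 2.63, 1.04 and 0.779 FPKM in the ACT + IL-2 tumors and 5.58, 7.83 and 5.39 FPKM in the ACT + NKTR-214 tumors. The groups did not overlap, and ACT + IL-2 replicate 1 lay above the other tumors of its group. The mean rose from 1.48 ± 1.00 to 6.27 ± 1.36 FPKM (4.22-fold), and the log2 fold change was 1.61 (SE 0.23, adjusted p = 6.33e-05). Il1r2, the decoy receptor, had lower values of 1.15, 0.259 and 0.744 FPKM in ACT + IL-2 and 1.29, 2.86 and 2.68 FPKM in ACT + NKTR-214. Its groups came close, at 1.15 and 1.29 FPKM. Its mean rose 3.17-fold, from 0.718 ± 0.446 to 2.28 ± 0.859 FPKM, with a log2 fold change of 0.93 (SE 0.20, adjusted p = 0.00269). That call did not hold without ACT + IL-2 replicate 2, where the log2 fold change was 0.72 (adjusted p = 0.0694). In the same refit the adjusted p of Il18r1 rose from 6.19e-07 to 0.00686, at log2 fold changes of 2.72 and 2.66. The Il1r2 value of 0.259 FPKM in ACT + IL-2 replicate 2 corresponded to about 8 reads. Its exact Poisson interval of 0.106 to 0.486 FPKM covers counting error only. Per tumor, Il1r1 stood at 2.29, 4.02 and 1.05 times Il1r2 with IL-2 and at 4.32, 2.74 and 2.01 times with NKTR-214, so the signalling receptor was the more abundant in every tumor. These linear ratios overlapped, while on the log2(FPKM + 1) scale the groups did not: 0.76, 0.70 and 0.03 with IL-2 and 1.52, 1.195 and 0.79 with NKTR-214.

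Il18r1, the ligand-binding chain of the IL-18 receptor, had 0.833, 0.466 and 0.550 FPKM in the ACT + IL-2 tumors and 13.3, 12.0 and 5.46 FPKM in the ACT + NKTR-214 tumors. Il18rap, the accessory chain, had 1.02, 0.554 and 0.646 FPKM and 13.4, 13.5 and 6.32 FPKM. For both chains every ACT + NKTR-214 tumor was several times above every ACT + IL-2 tumor, and ACT + NKTR-214 replicate 3 was the lowest of its group. The mean of Il18r1 rose 16.6-fold, from 0.617 ± 0.192 to 10.2 ± 4.19 FPKM (log2 fold change 2.72, SE 0.24, 95% interval 2.22 to 3.23, adjusted p = 6.19e-07). The mean of Il18rap rose 15.0-fold, from 0.740 ± 0.247 to 11.1 ± 4.13 FPKM (log2 fold change 2.74, SE 0.23, 95% interval 2.25 to 3.22, adjusted p = 4.09e-07). Il18r1 stood at 0.816, 0.841 and 0.852 of Il18rap in ACT + IL-2 and at 0.991, 0.886 and 0.865 in ACT + NKTR-214. On this linear scale every ACT + NKTR-214 ratio lay above every ACT + IL-2 ratio, while on the log2(FPKM + 1) scale the groups overlapped.

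The IL-18 receptor chains were set beside the markers of T cells and NK cells, which are among the cells that carry them. As a share of the summed FPKM of 7 T cell genes, Il18r1 stood at 3.36 to 5.13% in ACT + IL-2 and 4.26 to 5.45% in ACT + NKTR-214, and Il18rap at 4.11 to 6.02% and 4.89 to 5.50%. These were the only members of the 10 whose ranges overlapped on this scale, and the other 8 were lower in ACT + NKTR-214 relative to T cell genes in every tumor. Relative to 5 NK cell genes both chains were higher in every ACT + NKTR-214 tumor, Il18r1 at 22.1 to 42.8% against 46.7 to 69.9% and Il18rap at 27.0 to 50.2% against 54.0 to 70.6%. The genes of that list disagreed: Klre1, which NK and T cells both express, rose from a mean of 0.549 to 9.81 FPKM, while Ncr1 (0.582 and 0.672 FPKM, adjusted p = 0.799) and Klra8 (0.122 and 0.127 FPKM, adjusted p = 0.977) did not pass. They were higher also relative to 5 genes of all leukocytes, Il18r1 at 0.394 to 0.644% against 1.12 to 1.75% and Il18rap at 0.482 to 0.755% against 1.30 to 1.76%. On the all-leukocyte scale 5 members were lower in every ACT + NKTR-214 tumor: Il1b (1.05 to 3.602% against 0.565 to 0.736%), Il18 (3.08 to 4.76% against 0.718 to 1.43%), Il33 (2.01 to 3.07% against 1.60 to 1.66%), Il1rn (4.63 to 10.8% against 2.37 to 4.47%) and Il18bp (16.9 to 28.1% against 8.80 to 13.8%). The other 3 overlapped. Relative to the neutrophil genes 2 members were higher, 5 were lower and 3 overlapped. Relative to 8 monocyte and macrophage genes, Il1a (0.408 to 0.819% against 0.854 to 1.75%) and Il1r1 (1.01 to 1.37% against 1.65 to 1.70%) were higher in every ACT + NKTR-214 tumor, as were both IL-18 receptor chains. Il18 was lower on that scale, at 3.38 to 5.30% against 1.39 to 2.43%, and the other 5 members overlapped. These shares describe how the genes moved beside cell markers, and the part of cell content in each change was not tested.

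Sequence before a transcript start of both IL-18 receptor genes is shown because these genes changed most (RefSeq, GRCm38.p6, plus strand). Il18r1 had 3 windows, and those of its 2 upstream starts (chr1:40465302-40465551 and chr1:40465371-40465620) held none of the 6 motifs and are not printed. The 159 bases printed for Il18r1, at chr1:40465811-40465969, come from the window of the start farthest downstream, chosen with its motif known. They lie inside the annotated gene, in no annotated exon. Those for Il18rap are the 250 bases at chr1:40515112-40515361. Capitals mark the STAT motif TTCNNNGAA in Il18r1 and the PU.1 motif GAGGAAGT in Il18rap.
Il18r1: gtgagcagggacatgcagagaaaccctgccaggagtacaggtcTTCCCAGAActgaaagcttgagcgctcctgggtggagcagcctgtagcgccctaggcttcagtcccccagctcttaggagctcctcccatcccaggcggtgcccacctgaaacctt
Il18rap: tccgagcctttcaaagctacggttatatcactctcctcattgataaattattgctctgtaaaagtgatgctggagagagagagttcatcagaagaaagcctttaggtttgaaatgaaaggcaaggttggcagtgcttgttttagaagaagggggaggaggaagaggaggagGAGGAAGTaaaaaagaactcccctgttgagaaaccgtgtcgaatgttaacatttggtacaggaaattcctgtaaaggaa
STAT5, which the IL-2 receptor activates, is among the factors known to bind the STAT motif. The third Il18r1 window held it in 2 places, at 219 to 211 bases (TTCTGGGAA, within an exon of an alternative transcript) and at 152 to 144 bases (TTCCCAGAA) before the start. A window of Il1r2 held it as TTCAAGGAA at 111 to 103 bases before the start. It was present in 7.02% of all windows. The motif reads the same on both strands, and 0 windows of Il18rap held it. PU.1 stands at 79 to 72 bases before the Il18rap start, and 2.44% of all windows hold it. No match to 1 motif overlapped a match to another in these genes.

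All 4 receptor genes lie in 1 stretch of chromosome 1 with those of 2 other family receptors, Il1rl2 (for IL-36) and Il1rl1 (for IL-33). From Il1r2 to Il18rap the stretch spans 477.6 kb (chr1:40074079-40551705) and holds 6 protein-coding genes, all on the plus strand and all 6 higher in ACT + NKTR-214. Il1rl2 rose from 0.723 ± 0.473 to 3.47 ± 0.949 FPKM (log2 fold change 1.39, adjusted p = 4.37e-05). Il1rl1 had 0.704, 0.173 and 0.202 FPKM with IL-2 and 1.64, 1.86 and 1.38 FPKM with NKTR-214, without overlap (log2 fold change 0.97, adjusted p = 9.11e-05). The changes within the stretch were unequal, from 0.93 for Il1r2 to 2.74 for Il18rap. On its sides Map4k4, a signalling kinase, did not pass (log2 fold change -0.21, adjusted p = 0.309). Slc9a4, a sodium-proton exchanger, rose by 0.33 (adjusted p = 0.00665) at a low level, from a mean of 0.0374 to 0.306 FPKM. Its ratio of means, 8.18, was above those of Il1r2 (3.17), Il1r1 (4.22), Il1rl1 (4.53) and Il1rl2 (4.80), which the pseudocount of 1 reverses on the log2 scale. Mfsd9, beyond it, had a value of 0.09 (adjusted p = 0.641).

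**Figure D3:**
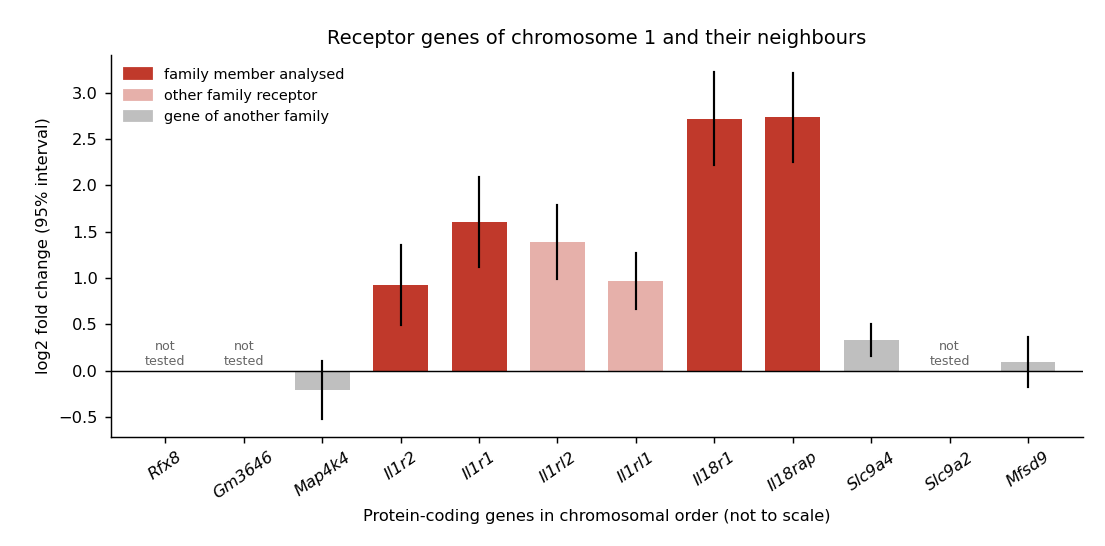
Log2 fold changes with 95% intervals of protein-coding genes in their order along chromosome 1, family genes in red and pink and others in grey. The 6 family genes from Il1r2 to Il18rap lie between 0.93 and 2.74, and the tested neighbours of other families between -0.21 and 0.33, a scale that lowers the value of Slc9a4 (0.0374 to 0.306 FPKM) most.

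By mean FPKM the antagonists were the most abundant members in both groups. Il1rn, which encodes the IL-1 receptor antagonist, had 9.79, 5.90 and 9.19 FPKM in the ACT + IL-2 tumors and 18.02, 26.2 and 21.7 FPKM in the ACT + NKTR-214 tumors. There was no overlap, and the mean rose 2.65-fold, from 8.29 ± 2.10 to 22.0 ± 4.08 FPKM (log2 fold change 1.32, SE 0.19, 95% interval 0.92 to 1.71, adjusted p = 6.28e-05). Il18bp, the IL-18 binding protein, had 35.8, 25.03 and 24.03 FPKM with IL-2 and 70.2, 80.9 and 66.8 FPKM with NKTR-214. Its groups were far apart beside their spread, with means of 28.3 ± 6.51 and 72.7 ± 7.36 FPKM (2.57-fold, log2 fold change 1.35, SE 0.17, 95% interval 0.99 to 1.71, adjusted p = 2.18e-05). Il1rn lies at chr2:24336853-24351494 on the plus strand and Il18bp at chr7:102014885-102018690 on the minus strand, where 2.64% of its exon bases overlap Numa1 on the other strand (log2 fold change 0.20, adjusted p = 0.323).

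Among the ratios of ligand to antagonist, that of Il18 to Il18bp separated the groups on the log2(FPKM + 1) scale, though its adjusted p missed the threshold. The ratio of Il18 to Il18bp was 0.182, 0.187 and 0.169 in the ACT + IL-2 tumors and 0.116, 0.0816 and 0.104 in the ACT + NKTR-214 tumors. Il18 was thus lower relative to its binding protein in every ACT + NKTR-214 tumor, and the log2 ratio differed by -0.90. The exact permutation test gave p = 0.1, or 0.2 after Benjamini-Hochberg adjustment over 6 pairs. Il18r1 relative to Il18 moved the other way, from 0.128, 0.0998 and 0.135 to 1.63, 1.81 and 0.789 (log2 difference 2.27, exact permutation p = 0.1), a pair chosen after its values were seen. The receptor chain was far below its ligand in ACT + IL-2 tumors, and above it in 2 of 3 ACT + NKTR-214 tumors.

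For the IL-1 arm no ratio of ligand to antagonist separated the groups on the log2(FPKM + 1) scale. Il1b stood at 0.460, 0.186 and 0.335 of Il1rn with IL-2 and at 0.311, 0.227 and 0.126 with NKTR-214, with overlap (log2 difference -0.69, exact permutation p = 0.2, adjusted p = 0.3). Il1a stood at 0.0802, 0.0825 and 0.0685 of Il1rn and at 0.327, 0.242 and 0.125. On the linear scale those ratios did not overlap, while on the log2(FPKM + 1) scale they did (difference 0.49, exact permutation p = 0.3, adjusted p = 0.36). Il1rn exceeded both IL-1 ligands in every tumor. For Il33 against Il1rl1 the log2 difference was 0.70 (exact permutation p = 0.1, adjusted p = 0.2), and it was -0.14 with a pseudocount of 0.1, so no direction was read from it. The log2 ratio of Il1r1 to Il1r2 differed by 0.68 (p = 0.1, adjusted p = 0.2 in the same exact permutation test) and that of Il18r1 to Il18rap by -0.01 (p = 0.8, adjusted p = 0.8).

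**Figure D4:**
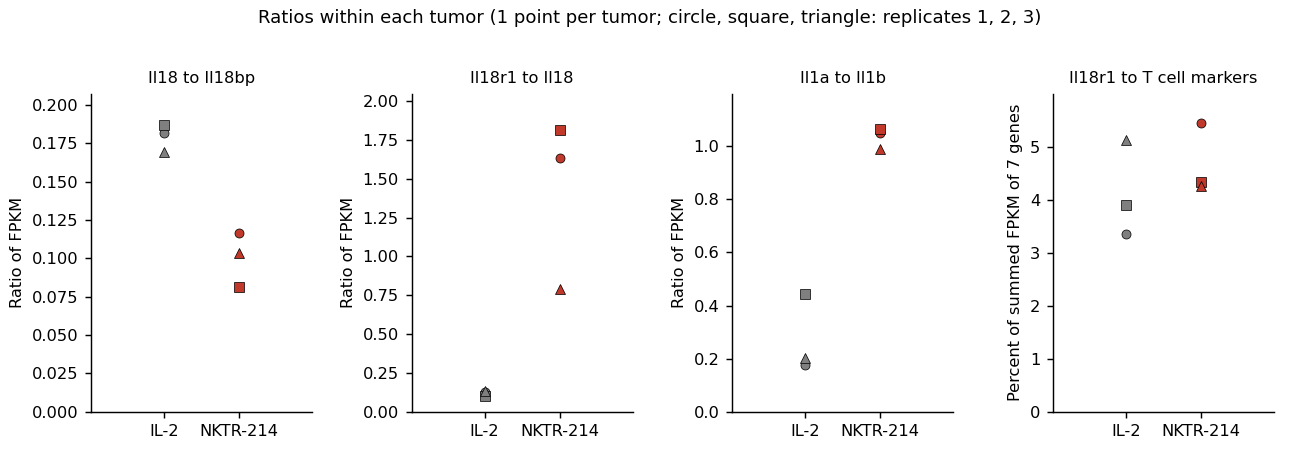
Ratios of FPKM within each tumor for Il18 to Il18bp, Il18r1 to Il18 and Il1a to Il1b, and Il18r1 as a percent of the summed FPKM of 7 T cell genes, 1 point per tumor. The first 3 ratios separate the groups, the first downwards in ACT + NKTR-214, and the last overlaps (3.36 to 5.13% and 4.26 to 5.45%).

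By mean FPKM the order in ACT + IL-2 tumors was Il18bp, Il1rn, Il18, Il33, Il1b, Il1r1, Il18rap, Il1r2, Il1a and Il18r1. In ACT + NKTR-214 tumors it was Il18bp, Il1rn, Il33, Il18rap, Il18r1, Il18, Il1r1, Il1a, Il1b and Il1r2. Il18bp lay above Il1rn without overlap in both groups, and Il1rn above Il33 without overlap in ACT + NKTR-214. All other neighbours in either order overlapped in range. The IL-18 receptor chains moved from places 7 and 10 to places 4 and 5, and Il18 from place 3 to place 6.

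The tumors of each group were not alike. ACT + IL-2 replicate 1 had the highest value of its group for all 10 genes, and replicate 2 the lowest for 7. Among ACT + NKTR-214 tumors, replicate 2 was highest for 8 genes and replicate 3 lowest for 7, including Il1a, Il33 and both IL-18 receptor chains. ACT + IL-2 replicate 2 also had the lowest sum of FPKM over all entries (176420, against 217581 to 246514 in the other tumors).

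The remaining receptors of the family were Il1rap, Sigirr, Il1rapl1 and Il1rapl2, beside Il1rl1 and Il1rl2. Il1rap, the accessory chain shared by the receptors for IL-1, IL-33 and IL-36, had 2.34, 1.97 and 2.43 FPKM in ACT + IL-2 and 3.09, 3.24 and 3.45 FPKM in ACT + NKTR-214. Its groups did not overlap, yet the change was small (log2 fold change 0.40, SE 0.14, adjusted p = 0.047) and stayed past the threshold in 3 of 14 alternative settings. Sigirr, an inhibitory receptor, did not pass (log2 fold change 0.52, adjusted p = 0.0543). Il1rapl1 was too low to be tested, and Il1rapl2 was listed at 0 in all 6 tumors. Among the other ligands, Il1f9 (IL-36 gamma), named after its values were seen, rose at a low level from 0.0613 ± 0.0371 to 0.341 ± 0.202 FPKM (adjusted p = 0.024). Il1f5, Il1f6, Il1f8 and Il1f10 were listed at 0 in all 6 tumors.

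Pathway genes were taken from 6 lists that leave out the 10 members. Of 73 listed genes, 65 were tested, and 48 were higher and 0 lower in ACT + NKTR-214 by limma (0 lower also at an unadjusted p under 0.05), with a median log2 fold change of 0.76. Without variance moderation 3 of the 65 were higher, so the counts of these lists rest on it. Inflammasome and processing genes were higher in 14 of 16 tested. Aim2, a sensor of cytosolic DNA, rose from 1.07 ± 0.347 to 6.56 ± 1.79 FPKM (log2 fold change 1.85), Naip2, a sensor of bacterial secretion proteins, by 1.27 and Mefv (pyrin) by 1.17. Ctsg, a granule protease of myeloid cells that can process IL-1 cytokines, had 0.0419, 0 and 0.143 FPKM with IL-2 and 4.58, 7.34 and 4.25 FPKM with NKTR-214 (log2 fold change 2.56). Casp1, the IL-1 beta and IL-18 convertase, rose from 10.2 ± 2.72 to 19.6 ± 1.72 FPKM (0.89), and Gsdmd, the pore through which these cytokines leave the cell, from 12.5 ± 2.29 to 28.3 ± 3.77 FPKM (1.12). These 2 genes were named after their values were seen. Pycard, the inflammasome adaptor, and Casp8 did not pass (0.34 and 0.13, adjusted p = 0.155 and 0.569).

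Among 24 genes of the signalling shared by these receptors, 13 were higher, with a median of 0.57. The 4 with the largest change were Nfkbia (1.65) and Tnfaip3 (1.62), both feedback inhibitors of NF-kappaB, the kinase Map3k8 (1.13) and the NF-kappaB subunit Relb (0.88). Nfkbia rose from 15.98 ± 7.09 to 50.9 ± 13.9 FPKM and Tnfaip3 from 3.66 ± 0.843 to 13.4 ± 3.46 FPKM. Under 2 other scalings of the libraries, 4 signalling genes (Map3k7, Tab3, Tollip and Ube2n, named for this result) were called lower. Genes known to be induced by IL-1 were higher in 12 of 14, with a median of 1.29. They included Nos2 (inducible nitric oxide synthase), which rose from 12.3 ± 5.08 to 53.9 ± 6.35 FPKM, Lcn2 (from 3.11 ± 0.714 to 15.9 ± 5.07), the acute-phase gene Saa3 (from 70.2 ± 32.2 to 218 ± 91.4) and the monocyte chemokine gene Ccl2 (from 22.2 ± 4.88 to 66.3 ± 9.95). Their log2 fold changes were 2.11, 2.00, 1.66 and 1.54. Ptgs2 and Mmp9 did not pass (0.45 and -0.10).

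Of 6 tested genes known to be induced by IL-18 with IL-12 or by IL-33, 5 were higher. Il2ra, which completes the high-affinity IL-2 receptor, had 0.872, 0.563 and 0.530 FPKM in the ACT + IL-2 tumors and 20.3, 24.5 and 19.4 FPKM in the ACT + NKTR-214 tumors. Its mean was 32.7-fold higher (log2 fold change 3.76, adjusted p = 7.88e-10), and IL-2 itself is also known to induce this gene. Ifng rose from 1.59 ± 0.612 to 6.91 ± 1.19 FPKM (1.63) and Tnf from 2.05 ± 0.120 to 4.33 ± 1.48 FPKM (0.77). The type 2 cytokine genes Il5 and Il13, named after their values were seen, were higher at mean levels of 0.546 and 0.912 FPKM in ACT + NKTR-214. Areg did not pass (-0.12), and Il4 was too low to be tested.

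**Figure D5:**
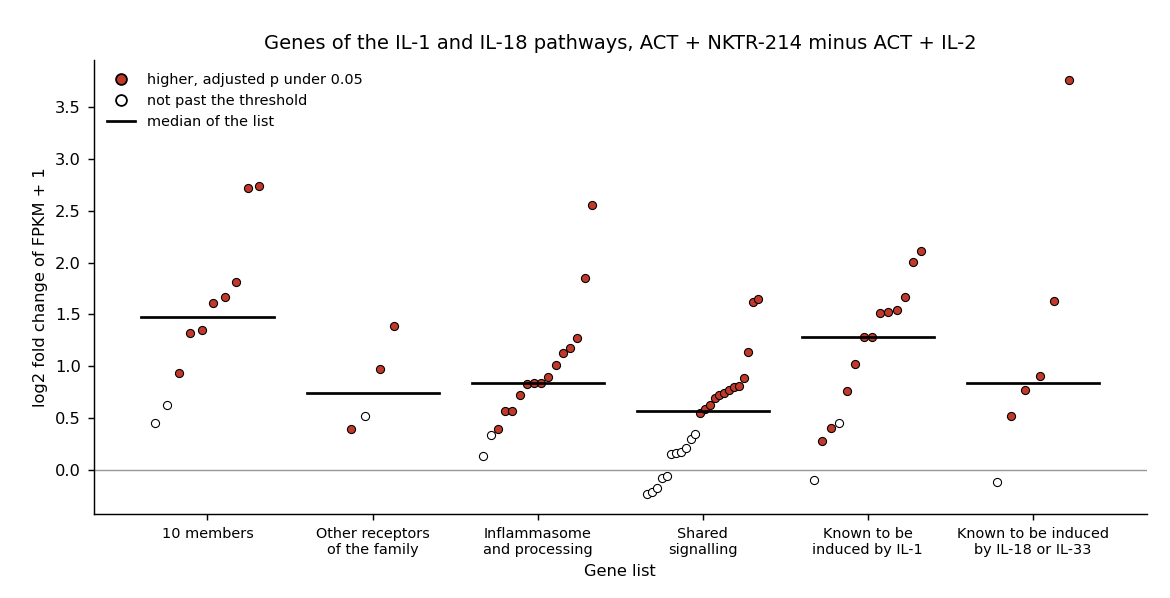
Log2 fold change of each tested gene of the 10 members and of 5 pathway lists, filled where the gene passed the test as higher, with a line at the median of each list. The medians are 1.48 for the members, 0.74 for other receptors, 0.83 for inflammasome genes, 0.57 for shared signalling, 1.29 for genes known to be induced by IL-1 and 0.83 for those known to be induced by IL-18 or IL-33.

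For each member past the threshold, the pathway or marker gene with the most similar profile was found among 136 genes, by the root mean square difference between centred log2(FPKM + 1) values over the 6 tumors. The difference between groups enters this measure, so likeness here includes a change of similar size. Il18r1 and Il18rap were both nearest to Klre1, a receptor gene of NK and T cells, at 0.20 and 0.17. Il1a was nearest to Lcn2 (0.13), Il33 to Tnfaip3 (0.11), Il1r1 to the myeloid integrin gene Itgax (0.12) and Il1r2 to the granule protease gene Prtn3 (0.23). Il1rn was nearest to the neutrophil chemokine gene Cxcl2 (0.13), and Il18bp to Naip2 (0.11).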

How the data were processed

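RNA-seq values of 6 whole tumors (3 per group, 1 library per mouse) were analysed. The authors mapped reads to GRCm38 with HISAT2 2.0.4, counted them with HTSeq and deposited FPKM values, which correct for exon length and mapped reads; no other scaling between libraries is given in the sources used here. A scaling to mapped reads makes each gene depend on the others, so abundant melanoma transcripts affect all values. Values were taken as log2(FPKM + 1), a scale that understates changes of low genes, and genes with a mean of at least 0.1 FPKM were tested with limma 3.58.1 in R 4.3.3 (eBayes with an intensity trend, no block), with Benjamini-Hochberg adjustment at 0.05. For log2 ratios of 6 gene pairs, and of 2 pairs chosen after their values were seen, exact permutation tests (two-sided) were used. The fit was tested on simulated data. Depth was estimated from the steps between low FPKM values. Gene positions and exons are from GENCODE vM21 (GRCm38), upstream sequences from RefSeq (GRCm38.p6). Python 3.11.15 was used for tables and figures.

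The members and gene lists were chosen with earlier results of these data known. Named genes are the 10 members, Il1rap and Il1rl1, up to 4 genes per pathway list and direction (largest log2 fold changes that passed, at a mean of 1 FPKM or more), neighbouring genes, defining cell markers and the genes of nearest profile. Every other gene named, such as list genes that did not pass or were too low to test, was chosen after its values were seen. As alternatives, each tumor was left out in turn, the libraries were scaled to their 75th percentile or quantile-normalized, the pseudocount was set to 0.1, the minimum mean to 1 FPKM or to none, and the fit was made with a replicate block, without trend or with no variance moderation.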

Additional observations from a re-analysis of the deposited data

How the results depend on the processing

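All 10 members kept a positive log2 fold change under all 14 alternatives. Without variance moderation 0 members passed (adjusted p from 0.0586 for Il18rap to 0.149 for Il1r2 among the 8 that limma calls, and 8 members at an unadjusted p under 0.05), 3 pathway genes were higher, and 101 genes were higher and 27 lower among all genes, against 2940 and 1173. That setting leaves each gene its own variance from 3 tumors per group. Otherwise 7 to 10 members were higher, and with 1 tumor left out 7 to 10 members and 33 to 50 pathway genes. Under scaling to the 75th percentile and under quantile normalization 8 members passed in each, 4 pathway genes were lower in each, and 3501 and 4549 of all genes were lower. The groups of 9 and 7 members did not overlap there. These scalings took the all-gene median of the log2 fold change from 0.045 to -0.012 and -0.1, and the higher share of all calls from 71.5% to 49.0% and 37.0%. Without ACT + IL-2 replicate 2 it was 50.1%. With 1 tumor left out, between 2005 and 3476 genes were higher and between 636 and 1996 were lower. The ends of that range came without replicate 3 and without replicate 2 of ACT + IL-2, and 680 were lower without ACT + NKTR-214 replicate 2. The cause was not tested.

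The same replicate number marks different mice. Deviations from group means correlated at -0.21, -0.067 and 0.40 for equal numbers and at -0.542 to 0.586 for unequal ones. No pairing by number was seen, though so few tumors cannot exclude one. With the replicate block 10 members, 49 pathway genes and 3090 of all genes were higher and 1227 lower, and Il1rap no longer passed (adjusted p = 0.0622). The blocked fit also estimated the moderation of variance anew. At the same log2 fold change of 2.74, the adjusted p of Il18rap went from 4.09e-07 to 1.77e-13. The added calls were therefore not read as stronger evidence.

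Among the ratios, Il33 to Il1rl1 turned to -0.14 with a pseudocount of 0.1. Il18r1 to Il18rap turned to 0.092 with that pseudocount, and to 0.0078 and 0.016 without ACT + NKTR-214 replicates 2 and 3. Il1a to Il1rn was 1.31 with that pseudocount.

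With 3 tumors per group, calls near the threshold (Il1b, Il18, Il1r2 and Il1rap) changed with the tumor left out or the setting. Each such fit estimated the moderation of variance anew, so a changed call cannot be assigned to a single tumor alone. By estimated reads, the range over tumors is lowest at both ends for Il1r2 (8 to 99) and highest at both ends for Il18bp (1301 to 5111).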
